A study of Mus musculus with 4 samples.

Results

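Radial glia are the progenitor cells that line the ventricles of the embryonic brain, and the 10 genes described here, *Nes*, *Vim*, *Fabp7*, *Pax6*, *Prom1*, *Tnc*, *Ptn*, *Hopx*, *Fam107a* and *Ptprz1*, are commonly used to mark them. They were chosen by name and, like the other gene lists below, with earlier results of these data known. All 10 were found among the 55573 Ensembl genes counted in the series. Radial glia span the wall of the neural tube with a long process, divide at the ventricle and give rise to neurons first and to astrocytes and oligodendrocytes later. Many of their genes stay active in the glia that descend from them. Newborn neurons switch most of them off. A subset of the list, with *Hopx*, *Fam107a*, *Tnc*, *Ptn* and *Ptprz1*, is known from outer radial glia, which have left the ventricle. In mice *Fam107a* and *Hopx* are also expressed by astrocytes.

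RNA was sequenced from tdTomato-positive cells sorted from the brains of mouse embryos at E16, with the day of insemination counted as E1. All embryos were on a C57BL/6J background and carried *Hmx3-Cre* and the *tdTomato* reporter, so that both sort and deletion follow *Hmx3*, a gene of postmitotic cells of the preoptic area (POA). The 2 WT libraries came from embryos with wild-type *Dnmt1* and the 2 KO libraries from embryos with the *Dnmt1 loxP2* allele, in which Cre removes exons 4 and 5 and leaves a null allele. The cells were pooled from 12 WT and 6 KO embryos. The labels call the 2 libraries of a genotype biological replicates and name the whole basal telencephalon as the tissue, whereas the study's methods describe technical duplicates of pooled POA samples. All SDs and p-values therefore describe the spread between libraries, which may be technical.

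The libraries held between 8075102 and 9995968 counts, and 3 counts corresponded to 0.294 to 0.372 CPM (reads of a gene relative to the TMM-adjusted library size), for counting error only. WT replicate 1 stood apart with 8.66% of its counts on mitochondrial rRNA, against 1.51% to 2.32% in the other libraries. *Dnmt1* was counted 3103 and 4557 times in the WT libraries, against 2383 and 2552 times with KO. Its log2 fold change was -0.56 ± 0.14 (SE; adjusted p = 0.0511 by edgeR), and both KO libraries were lower than either WT library. Reads on its remaining exons are part of these counts. For the labelled cell type, 15 genes of interneurons and neurons in general were examined, and all were detected in each library. Their detection cannot exclude other cells, whose markers are given below. *Hmx3* itself was counted 633 and 919 times in the WT libraries, against 604 and 851 times with KO.

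All 10 radial glia genes were detected in both genotypes and all passed the expression filter. In KO, *Fam107a* was 381-fold higher (exact 95% Poisson interval of the summed counts, for counting error only, 227 to 732) and *Hopx* was 4.70-fold higher (95% interval 2.06 to 10.7). The other 8 genes, among them the defining filament genes *Nes* and *Vim*, had differences between 1.07-fold and 1.64-fold and did not pass an edgeR adjusted p of 0.05. Thus 2 of the 10 genes were called higher, beside 7.33% of the 16832 genes tested (7.9% in either direction). None was called lower by edgeR, DESeq2 or limma-voom, beside 0.57% of all genes called lower by edgeR, and 0 were lower at an unadjusted p under 0.05, beside 8.01% of all genes. The fold changes of all 10 genes were above 0, with a median of 0.45 on the log2 scale, against -0.03 over all genes tested. In 9 of the 10 genes both KO libraries lay above both WT libraries, which was the case in 28.3% of all genes. These shares of all genes stand beside the counts of every gene list below as well. The number of radial glia genes called higher rested on the libraries. It was 5 without WT replicate 1, 7 without WT replicate 2, and 1, *Fam107a*, without KO replicate 1 or KO replicate 2. The share of all genes called higher moved as well, to 14.2% without WT replicate 1, 11.2% without WT replicate 2, 5.35% without KO replicate 1 and 5.08% without KO replicate 2. The share called lower was 7.15%, 12.0%, 0.656% and 0.288% in the same fits, with 0 of the 10 genes among them. In these fits the lone library of a genotype was given the spread of the other pair. The KO pair, which then supplied the spread when a WT library was left out, was the closer one (chi-square per degree of freedom between replicates 4.28, against 57.2 in WT). This chi-square was taken from raw counts and is not the spread that the fits estimate. It includes mitochondrial rRNA, which took 8.66% of the counts of WT replicate 1 and 1.51% of those of WT replicate 2.

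**Figure D1:**
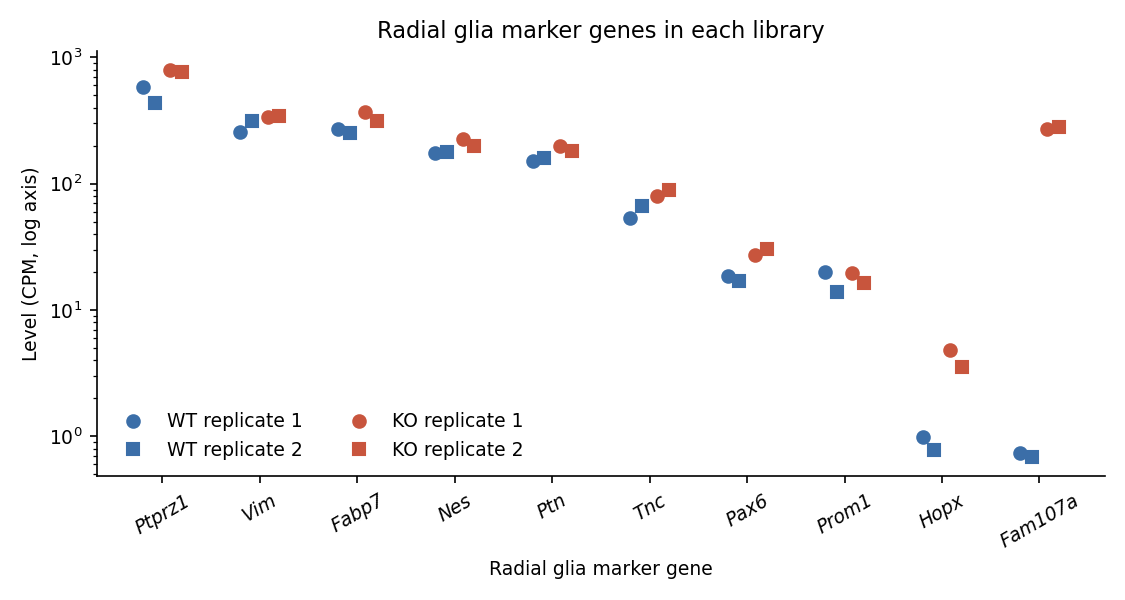
Level of each radial glia marker gene in CPM (log axis) in each of the 4 libraries, with WT in blue and KO in red and replicates 1 and 2 as circles and squares. *Fam107a* goes from 0.745 and 0.686 CPM in WT to 272 and 282 CPM in KO, while the libraries of *Prom1* overlap.

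*Fam107a* encodes an actin-binding protein that is induced by stress hormones. The gene lies on chromosome 14 (GRCm38, 8296274 to 8318023, minus strand). It had 6 and 7 counts in the WT libraries and 2291 and 2556 in the KO libraries. Both WT libraries thus held little above the floor of 3 counts, and the KO libraries did not come near it. The level was 0.715 ± 0.0417 CPM in WT against 277 ± 6.46 CPM in KO (SD, n = 2 each), and the log2 fold change was 8.58 (adjusted p = 1.79e-06 by edgeR). Its SE was 0.44 with DESeq2 and 0.51 with limma-voom. The SE of 0.22 by edgeR, which was taken from the test statistic, gives an interval narrower than the counting error of the 13 WT reads. It stayed between 8.50 and 8.62 with any of the 4 libraries left out.

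*Hopx*, which encodes a small homeodomain protein that does not bind DNA, lies on chromosome 5 from 77086988 to 77115121 on the minus strand. It had 8 counts in each WT library and 41 and 32 in the KO libraries. These are low counts, and the genotypes did not overlap. The level was 0.888 ± 0.148 CPM in WT against 4.20 ± 0.955 CPM in KO (SD, n = 2 each), with a log2 fold change of 2.23 ± 0.52 (SE; adjusted p = 0.0366 by edgeR). With DESeq2 the SE was 0.78. This call did not hold with limma-voom (adjusted p = 0.0535), nor without KO replicate 1 (edgeR adjusted p = 0.331) or KO replicate 2 (edgeR adjusted p = 0.0902). The antisense gene *Hopxos* overlaps 27.2% of the exonic bases of *Hopx*. It was counted 2 and 0 times in the WT libraries, against 4 and 3 times with KO, and as the strand setting of the counting is not given in the sources used here, reads in the shared part cannot be told apart.

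The promoters of the 2 called genes are shown because DNMT1 acts on cytosines in CpG dinucleotides, and that of *Ptprz1*, which was not called, is shown as the member with the most CpG. Each sequence runs 5′ to 3′ from 250 bases before to 50 bases after a transcription start in RefSeq (GRCm38.p6), with CpG in capitals. *Fam107a* has its first start in the window chr14:8317558-8317857 and another in chr14:8309730-8310029, *Hopx* in chr5:77115074-77115373 and chr5:77095218-77095517 (all on the minus strand), and *Ptprz1* in chr6:22875252-22875551 on the plus strand. A further start of *Fam107a* lies within 2 bases of the second and is not shown, and the 2 windows of *Tnc* overlap as well.
Fam107a first start: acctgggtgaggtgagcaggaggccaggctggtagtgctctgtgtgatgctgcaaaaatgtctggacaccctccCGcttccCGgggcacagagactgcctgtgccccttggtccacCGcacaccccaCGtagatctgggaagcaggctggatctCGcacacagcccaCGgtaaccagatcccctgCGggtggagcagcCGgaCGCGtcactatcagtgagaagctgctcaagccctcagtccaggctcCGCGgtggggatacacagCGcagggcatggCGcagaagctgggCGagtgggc
Fam107a second start: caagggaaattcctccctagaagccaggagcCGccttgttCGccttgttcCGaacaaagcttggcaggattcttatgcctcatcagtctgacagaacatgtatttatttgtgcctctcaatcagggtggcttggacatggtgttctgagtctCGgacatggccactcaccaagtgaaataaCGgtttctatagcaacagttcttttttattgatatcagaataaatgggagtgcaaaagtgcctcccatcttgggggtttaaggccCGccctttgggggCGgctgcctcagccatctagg
Hopx first start: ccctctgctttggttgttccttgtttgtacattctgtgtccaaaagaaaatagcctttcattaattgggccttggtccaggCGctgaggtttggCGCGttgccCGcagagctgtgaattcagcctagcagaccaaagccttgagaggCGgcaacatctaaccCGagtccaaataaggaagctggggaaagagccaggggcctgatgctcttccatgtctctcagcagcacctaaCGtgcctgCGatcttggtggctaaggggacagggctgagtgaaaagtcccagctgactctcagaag
Hopx second start: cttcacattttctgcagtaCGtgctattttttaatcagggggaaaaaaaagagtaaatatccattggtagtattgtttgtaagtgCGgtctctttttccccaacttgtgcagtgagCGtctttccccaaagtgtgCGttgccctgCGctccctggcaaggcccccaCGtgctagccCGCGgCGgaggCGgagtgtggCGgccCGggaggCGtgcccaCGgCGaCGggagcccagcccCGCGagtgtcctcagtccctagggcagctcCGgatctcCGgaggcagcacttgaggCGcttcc
Ptprz1 start: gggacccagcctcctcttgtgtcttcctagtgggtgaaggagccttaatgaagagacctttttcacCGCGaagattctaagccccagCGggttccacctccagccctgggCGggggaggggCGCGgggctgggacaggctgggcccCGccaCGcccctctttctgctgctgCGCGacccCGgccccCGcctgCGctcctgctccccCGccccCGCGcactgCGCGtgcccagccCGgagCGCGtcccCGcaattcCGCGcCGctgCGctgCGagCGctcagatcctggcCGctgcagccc

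The windows of *Fam107a* held 15 and 7 CpG, those of *Hopx* held 8 and 21, and that of *Ptprz1* held 29. All 10 genes had such a window, 16 in all, and the other members ranged from 4 CpG at the second start of *Prom1* to 18 at *Nes* and at the first start of *Pax6*. The median over 32817 windows of the genome was 7, with quartiles of 3 and 20. The second start of *Hopx* thus held more CpG than any window of the other members except that of *Ptprz1*. The letters TGGGAA, the core of sites of the Notch effector RBPJ, were found on either strand in 6 of the 16 windows (25.6% of all windows), ACAAAG, a core of SOX sites, in 3 (18.7%), and TTCNNNGAA, a STAT site, in 0 (8.29%). These windows are not all separate, since 2 of the 6 are the overlapping windows of *Tnc* and 2 of the 3 are those of *Fam107a* that start 2 bases apart. Counts per gene do not tell which start was used, and DNA methylation was not analysed here.

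**Figure D2:**
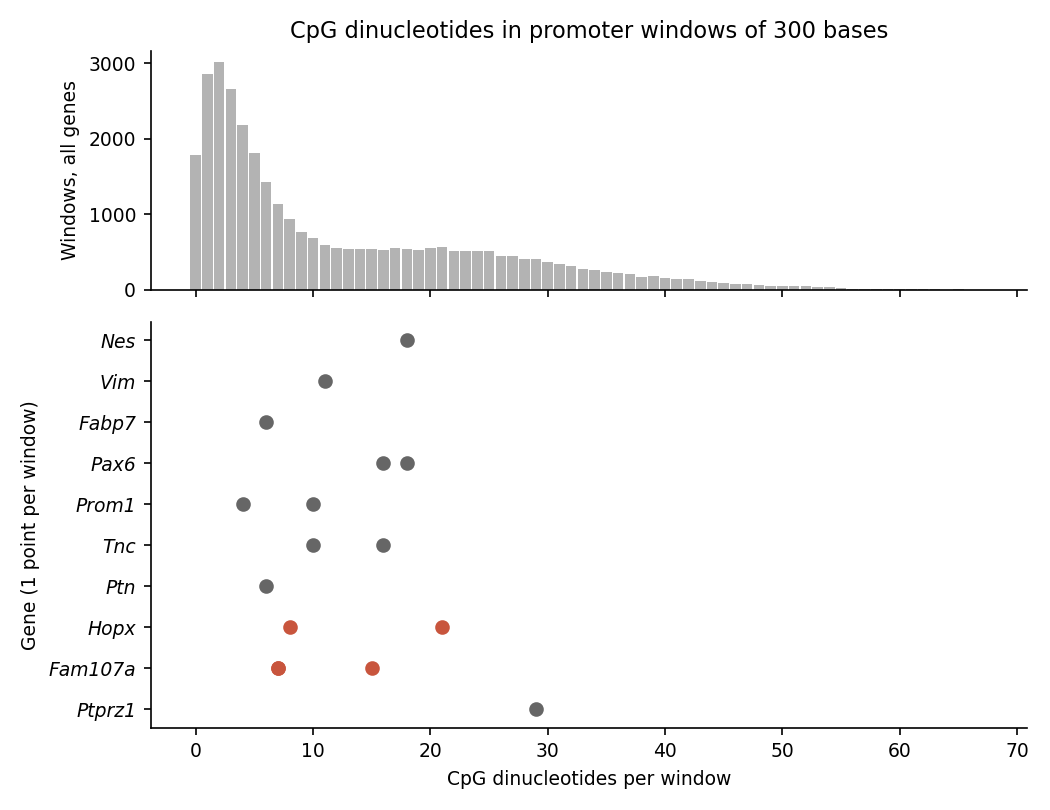
Number of CpG dinucleotides per promoter window of 300 bases, as a histogram over 32817 RefSeq windows (top) and with 1 point per window for each radial glia marker gene (bottom), the called genes *Hopx* and *Fam107a* in red. The red points, at 7 to 21 CpG, lie between *Prom1* with 4 and *Ptprz1* with 29.

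Nestin and vimentin are intermediate filament proteins, and their network fills the long process of radial glia. *Nes* (chromosome 3, 87971078 to 87980451, plus strand) was counted 1409 and 1822 times in the WT libraries, against 1894 and 1822 times with KO. Its level was 177 ± 2.56 CPM in WT against 213 ± 17.3 CPM in KO (SD, n = 2 each), and the log2 fold change of 0.27 had a 95% interval of -0.05 to 0.59 (edgeR adjusted p = 0.293). The WT libraries lay close together and below both KO libraries. *Vim* (chromosome 2, 13573927 to 13582826, plus strand) was counted 2064 and 3182 times in the WT libraries, against 2818 and 3119 times with KO. This corresponds to 284 ± 39.3 CPM in WT against 339 ± 6.00 CPM in KO (SD, n = 2 each), a log2 fold change of 0.26 with a 95% interval of -0.09 to 0.60 (edgeR adjusted p = 0.349). Here WT replicate 1 was the lowest library, and the difference rested on it. *Vim* passed in 1 of the 10 other fits of all 4 libraries, that with the replicate block and offsets together. Without WT replicate 1 the log2 fold change was 0.11 (edgeR adjusted p = 0.536), and without WT replicate 2, which leaves WT replicate 1 alone, it was 0.39 (edgeR adjusted p = 0.0179).

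Of 11 further genes of intermediate filaments, 10 were tested and 3 rose in KO, while the median log2 fold change was -0.05. *Synm*, whose product synemin joins vimentin filaments, rose by 1.11 on the log2 scale (edgeR adjusted p = 0.046). *Gfap*, the filament of astrocytes, was at 0 in WT, with 149 and 198 counts in the KO libraries, a fold of at least 59.3 with the floor of 3 counts per WT library in place of 0. *Des*, the filament of muscle and mural cells, had 1 count in each WT library and 60 and 50 in KO. The neuronal filament genes *Ina* and *Nefl* had log2 fold changes of -0.34 and -0.73 (edgeR adjusted p = 0.199 and 0.104). *Nes* and *Vim* are expressed by mural and endothelial cells as well. The summed level of 12 mural and mesenchymal markers was 331 and 350.2 CPM in WT and 681 and 726 CPM in KO, with 5 of the 10 tested called higher (8 without WT replicate 1 or WT replicate 2) and *Acta2* at 0 counts in WT, and the part of these cells in the levels of *Nes* and *Vim* was not tested.

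*Fabp7* encodes the brain lipid-binding protein, a fatty acid carrier of radial glia and their glial descendants. The gene (chromosome 10, 57784881 to 57788450, plus strand) was counted 2167 and 2573 times in the WT libraries, against 3134 and 2873 times with KO. Its level was 261 ± 11.9 CPM in WT against 345 ± 39.7 CPM in KO (SD, n = 2 each). Both KO libraries lay above both WT libraries, and the log2 fold change of 0.40 (standard error 0.15) did not pass the threshold (edgeR adjusted p = 0.148). It passed in 2 of the 10 other fits of all 4 libraries, both with offsets for gene length and GC content, and without WT replicate 1 (edgeR adjusted p = 0.00301) and without WT replicate 2 (edgeR adjusted p = 0.0426), and not without either KO library.

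*Pax6*, a paired-box transcription factor that sets the identity of radial glia, lies on chromosome 2 from 105668900 to 105697364 on the plus strand. It was counted 149 and 172 times in the WT libraries, against 231 and 278 times with KO. The level was 17.7 ± 1.16 CPM in WT against 29.0 ± 2.23 CPM in KO (SD, n = 2 each), without overlap. The log2 fold change of 0.72 (standard error 0.19) missed the threshold narrowly (edgeR adjusted p = 0.0614). It passed without WT replicate 1 (edgeR adjusted p = 0.00284) or WT replicate 2 (edgeR adjusted p = 0.0201), and in 6 of the 10 other fits of all 4 libraries, and not without either KO library.

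Around *Pax6*, 18 other transcription factors, Notch pathway genes and RNA-binding proteins of neural stem cells were examined, and 8 of them rose in KO, with a median log2 fold change of 0.78. The called genes with the highest levels were *Msi2*, an RNA-binding protein of progenitors (0.71 on the log2 scale, edgeR adjusted p = 0.0252), the receptors *Notch1* (1.26, edgeR adjusted p = 0.00199) and *Notch2* (1.64, edgeR adjusted p = 0.000786), and *Sox9*, a factor of the switch to gliogenesis (0.96, edgeR adjusted p = 0.00752). The other 10 did not pass. *Sox2*, the general factor of neural stem cells, was counted 1847 and 1904 times in the WT libraries, against 1462 and 1510 times with KO (log2 fold change -0.29, adjusted p = 0.302 by edgeR). *Sox2* was named with its values known.

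*Prom1* encodes prominin, a protein of membrane protrusions known as CD133. The gene (chromosome 5, 43993620 to 44102032, minus strand) was counted 160 and 142 times in the WT libraries, against 165 and 150 times with KO. It was the only member whose genotypes overlapped, with 16.9 ± 4.21 CPM in WT against 18.1 ± 2.19 CPM in KO (SD, n = 2 each). The log2 fold change was 0.10 (edgeR adjusted p = 0.851), and its 95% interval ran from -0.47 to 0.68. The sign turned without WT replicate 2 (-0.15) and without KO replicate 1 (-0.01). The antisense gene *Gm16401* covers 5.91% of its exonic bases, counted 12 and 29 times in the WT libraries against 2 and 14 times with KO.

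The 3 remaining genes encode proteins that bind each other at the cell surface. Pleiotrophin (*Ptn*) is a secreted growth factor and a ligand of the receptor tyrosine phosphatase PTPRZ1, and tenascin C (*Tnc*) is a matrix protein that the same receptor binds. *Ptn* (chromosome 6, 36714929 to 36810220, minus strand) was counted 1218 and 1645 times in the WT libraries, against 1666 and 1641 times with KO. Its level was 156 ± 7.06 CPM in WT against 189 ± 12.3 CPM in KO (SD, n = 2 each), a log2 fold change of 0.28 with a 95% interval of -0.04 to 0.60 (edgeR adjusted p = 0.278). Both KO libraries lay above both WT libraries, and *Ptn* passed in 1 of the 10 other fits, that with the replicate block and offsets together (0.36, edgeR adjusted p = 0.00862). *Tnc* (chromosome 4, 63959785 to 64047015, minus strand) was counted 428 and 675 times in the WT libraries, against 669 and 813 times with KO, or 59.6 ± 9.20 CPM in WT against 84.5 ± 7.07 CPM in KO (SD, n = 2 each). The log2 fold change was 0.50 ± 0.17 (SE; adjusted p = 0.119 by edgeR). The gene passed in 3 of the 10 other fits of all 4 libraries and without WT replicate 2 (0.66, edgeR adjusted p = 0.000365). It did not pass without WT replicate 1 (0.35, edgeR adjusted p = 0.116) or without either KO library. The gene *8030451A03Rik* overlaps 2.26% of its exonic bases on the other strand and had at most 3 counts in any library.

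*Ptprz1* (chromosome 6, 22875502 to 23052916, plus strand) had the most counts of the 10 genes, with 4709 and 4453 in WT and 6671 and 6900 in KO. Its level was 510.4 ± 105 CPM in WT against 777 ± 23.5 CPM in KO (SD, n = 2 each). The WT libraries differed by more than the KO libraries, and the pairs did not overlap. The log2 fold change of 0.61 ± 0.17 (SE) did not pass (adjusted p = 0.0759 by edgeR), but it passed in 8 of the 10 other fits of all 4 libraries, with an adjusted p of 0.00875 with DESeq2 and 0.0427 with limma-voom. It also passed without WT replicate 1 (edgeR adjusted p = 3.57e-12, log2 fold change 0.82) and without WT replicate 2 (edgeR adjusted p = 0.00381, log2 fold change 0.40), and it did not without KO replicate 1 or KO replicate 2.

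Of 18 other ligands, receptors and matrix partners of these proteins, 4 rose in KO, and the median log2 fold change of the list was 0.07. *Bcan*, the matrix proteoglycan brevican, rose by 2.23 on the log2 scale from 1022 and 1692 counts to 5586 and 6468 (edgeR adjusted p = 0.000114). *Itgav*, an integrin that binds tenascin C, rose by 1.24 (edgeR adjusted p = 0.00321), *Egfr*, the receptor of epidermal growth factor, by 3.05 (edgeR adjusted p = 4.96e-05), and *Sdc4*, a syndecan, by 6.28 from 4 and 10 counts to 551 and 504 (edgeR adjusted p = 1.04e-05). The second ligand of PTPRZ1, midkine (*Mdk*), was counted 229 and 395 times in the WT libraries, against 252 and 251 times with KO (edgeR adjusted p = 0.55), and the neuronal partner contactin (*Cntn1*) had 2108 and 2708 in WT and 2427 and 2540 in KO (edgeR adjusted p = 0.667). *Mdk* and *Cntn1*, like *Ina* and *Nefl*, were named with their values known.

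**Figure D3:**
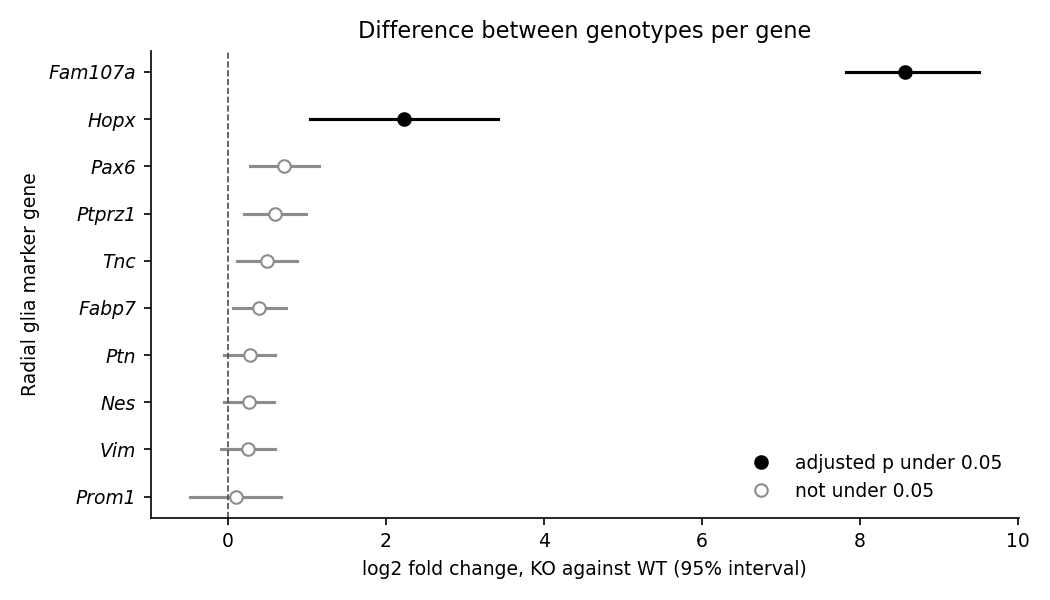
Difference between KO and WT for each radial glia marker gene on the log2 scale, as the edgeR estimate (point) with its 95% interval (line, for *Fam107a* the wider Poisson interval of the summed counts), filled where the adjusted p was under 0.05. *Fam107a* at 8.58 and *Hopx* at 2.23 are filled, and the other 8 genes lie between 0.10 and 0.72.

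Levels were compared between genes per exon length, in RPKM. In WT, *Fabp7* had the highest level with 208 ± 9.55 RPKM (SD, n = 2), followed by *Vim* with 59.9 ± 8.28, *Ptn* with 45.5 ± 2.06, *Ptprz1* with 35.8 ± 7.36 and *Nes* with 27.5 ± 0.399 RPKM. *Tnc* (7.67 ± 1.18 RPKM), *Prom1* (2.35 ± 0.586), *Pax6* (1.51 ± 0.0994), *Hopx* (0.586 ± 0.0976) and *Fam107a* (0.185 ± 0.0108) followed. No neighbours in this order overlapped between the 2 WT libraries. In KO, *Fam107a* moved from the last place to the level of *Vim*, with 71.6 ± 1.67 RPKM against 71.5 ± 1.26 RPKM (SD, n = 2), below *Fabp7* with 276 ± 31.8 RPKM. The ranges of *Fam107a* and *Vim* overlapped, as did those of *Ptn* (55.2 ± 3.57 RPKM) and *Ptprz1* (54.5 ± 1.65 RPKM). *Hopx* with 2.77 ± 0.630 RPKM reached the level of *Prom1* (2.52 ± 0.305) and *Pax6* (2.48 ± 0.191), and these 3 could not be ordered beyond their spread. The 10 genes together took 1529 and 1438 CPM in WT and 2328 and 2223 CPM in KO, and without *Fam107a* they took 1528 and 1438 CPM in WT and 2055 and 1941 CPM in KO.

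**Figure D4:**
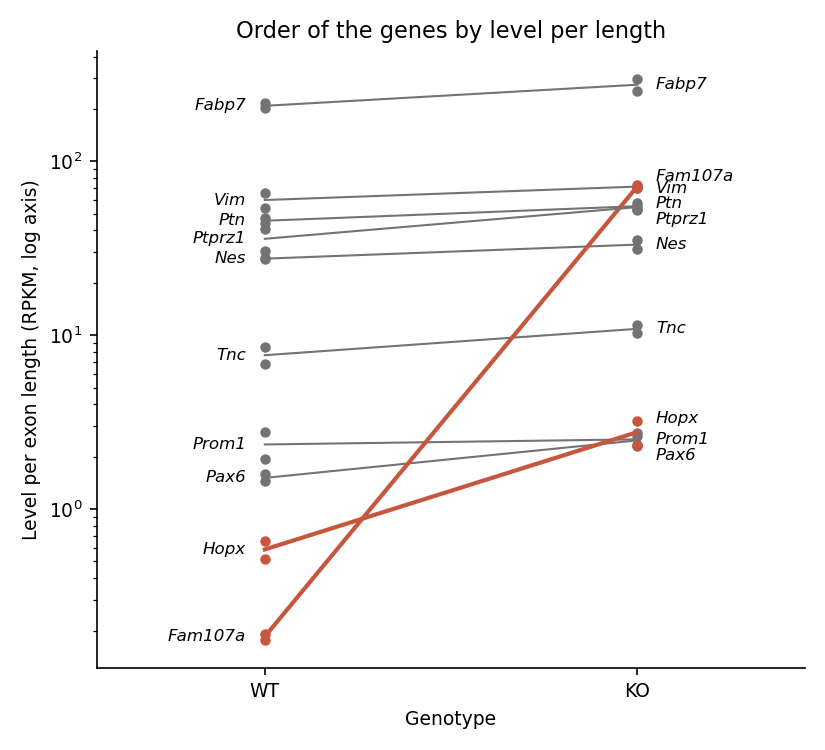
Level of the radial glia marker genes per exon length (RPKM, log axis) in WT and KO, with 1 point per library and a line between the means of the genotypes, the called genes in red. *Fam107a* crosses from the lowest place at 0.185 RPKM to 71.6 RPKM beside *Vim* at 71.5 RPKM, and *Hopx* reaches *Prom1* and *Pax6*.

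The genes whose pattern over the 4 libraries was nearest to that of *Fam107a*, by the distance between log2 CPM values centred on each gene's mean, were *Gjb6* (distance 0.333), *Acta2* (0.347) and *Ntsr2* (0.398). *Gjb6*, an astrocyte connexin, was counted 2 and 1 times in the WT libraries, against 974 and 1022 times with KO. *Acta2*, smooth muscle actin, had 0 counts in WT and 652 and 800 in KO, and *Ntsr2*, a neurotensin receptor of astrocytes, had 7 in each WT library and 1913 and 2048 in KO. All 3 were thus near the floor in WT, like *Fam107a*. The genes nearest to *Fabp7*, the member with the highest level per length, were *Shc4* (0.0263), *Pde4d* (0.0406) and *Ccdc28a* (0.0417), none of which was called. These distances rest on 4 libraries.

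Markers of astrocytes were also higher in KO. All 12 of them were called higher, beside 7.33% of all genes tested. Their median log2 fold change was 5.02 with *Gfap* and *Agt*, at 0 counts in WT, set to their lower bounds. Their summed level was 162 and 139.5 CPM in WT and 3363 and 3215 CPM in KO. The highest levels were those of the glutamate transporter *Slc1a2*, counted 913 and 914 times in the WT libraries against 17041 and 16980 times with KO, and of *Fgfr3*, *Gja1* and *Ntsr2*. Of 12 genes of membrane, secreted and metabolic proteins that radial glia and astrocytes share, 9 were called higher with a median of 2.90. Among them were *Slc1a3* (566 and 781 counts in WT, 4986 and 4955 in KO), *Glul*, *Apoe* and *Ttyh1*. *Fgfr3* is counted in this list and in that of astrocytes. The part of astrocytes in the levels of the radial glia genes was not tested. In such bulk samples fewer cells of a type and less RNA per cell cannot be told apart, and the same holds for more cells and more RNA. Of 10 further genes described for outer radial glia, 9 were tested and 4 rose, with a median of 0.63. These were *Acsbg1* (4.63 on the log2 scale, edgeR adjusted p = 7.07e-06), *Lifr* (1.29), *Pdlim5* (1.26) and *Itgb5* (2.11).

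No gene of dividing cells passed the test on all 4 libraries. Of 14 tested, 0 were called by edgeR, DESeq2 or limma-voom, beside 7.9% of all genes called by edgeR in either direction. Among so few genes, 0 lies near that share. Only 1, *Ccnb1* with a log2 fold change of -0.61, had an unadjusted p under 0.05. Without WT replicate 2, edgeR called 1 higher and 1 lower. *Mki67* was counted 1732 and 2219 times in the WT libraries, against 1827 and 1842 times with KO, and *Top2a* had 1213 and 1296 in WT and 1134 and 1174 in KO. Both overlapped between genotypes, and the log2 fold changes of the list ran from -0.61 to 0.50 with a median of -0.06. Among 13 tested genes of committed neuronal progenitors, *Olig2*, which also marks the oligodendrocyte lineage, rose by 0.63 (edgeR adjusted p = 0.0298), and *Insm1* fell by 0.69 on the log2 scale (edgeR adjusted p = 0.0382). Without KO replicate 1 or without KO replicate 2 the list had 0 calls in either direction, and without WT replicate 1 or WT replicate 2 it had 4 lower and 1 higher. Its median was -0.26, and 2 of the 13 genes had a log2 fold change above 0. Of the 15 interneuron and neuron genes, *Stmn2*, *Elavl4* and *Syt1* fell by 0.57, 0.81 and 0.73 on the log2 scale (edgeR adjusted p = 0.0425, 0.0258 and 0.015), and the median of the 15 was -0.44. The number called lower, 3, was 1 without KO replicate 1 or KO replicate 2, 6 without WT replicate 1 and 9 without WT replicate 2. In 12 of these 15 genes the KO libraries were both lower than either WT library, which was the case in 25.2% of all genes.

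**Figure D5:**
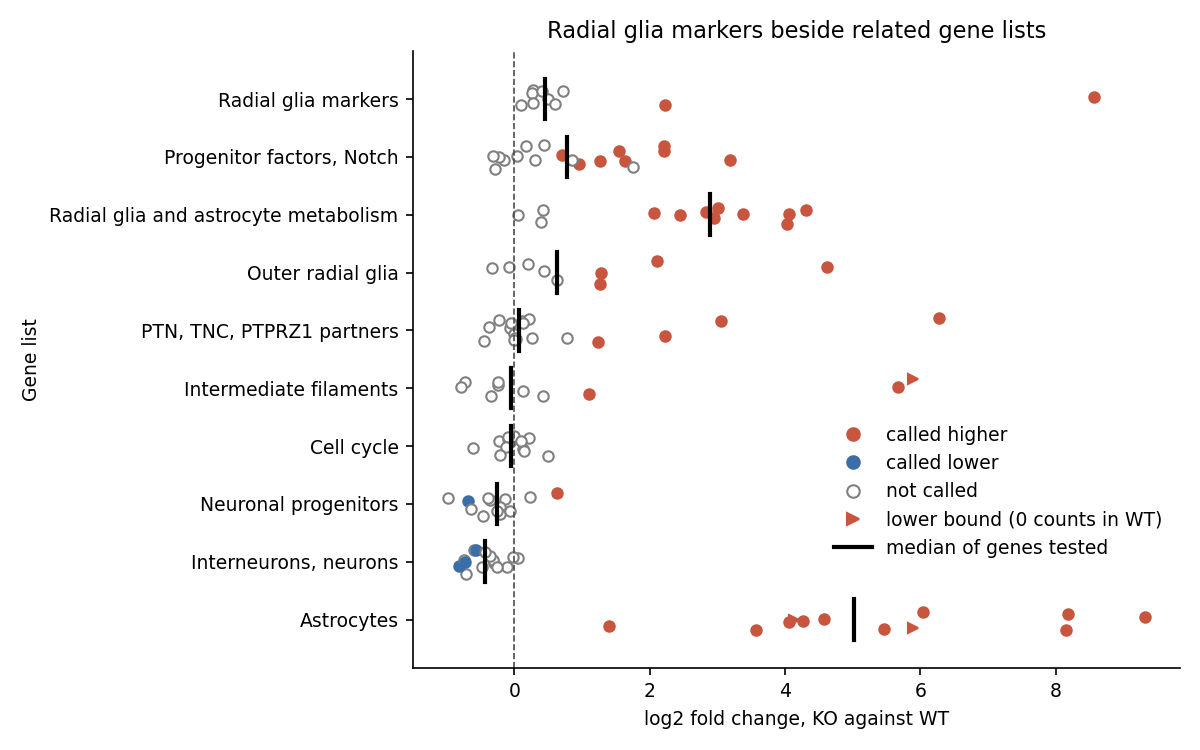
Log2 fold change of each tested gene (1 point per gene) for the radial glia markers and 9 related lists, with genes called higher in red, called lower in blue and not called as open circles, triangles for lower bounds where WT had 0 counts, and a bar at the median. Most radial glia markers lie near their median of 0.45 and cell cycle genes near -0.06, whereas the astrocyte list is centred on 5.02.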

How the data were processed

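RNA was sequenced from 2 WT and 2 KO libraries of sorted tdTomato-positive cells. The deposited values were raw read counts per Ensembl gene. The submitters' processing notes name CASAVA 1.8.2, STAR 2.5.2a, featureCounts 1.5.0-p1 and the builds mm10 and GRCm38, and the annotation and strand setting are not given in the sources used here. GENCODE M21 supplied symbols, positions and exon lengths for 55480 of 55573 identifiers.

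Counts were fitted with edgeR 4.0.16 (R 4.3.3, limma 3.58.1) with genotype as the only term, after its expression filter and TMM scaling, by the quasi-likelihood test with Benjamini-Hochberg adjustment over 16832 genes. Genes with an adjusted p under 0.05 were called. Standard errors follow from the test statistic, and 95% intervals use 8.05 degrees of freedom. Procedures were tested on simulated data. No library was a copy of another, since replicates differed by more than sampling noise. Alternatives were other scalings and filters, DESeq2 1.42.0, limma-voom, a replicate block, offsets for gene length and GC content, and leaving out each library.

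The radial glia genes and the other gene lists were chosen with earlier results of these data known. Named genes are the radial glia genes, *Dnmt1*, the called genes with the highest levels of each list (up to 4, or 8 for the PTN, TNC and PTPRZ1 partners, or the 2 highest tested genes where no gene was called), the 3 genes nearest in pattern (prior count 2), and overlapping genes. Other names were chosen after their values were seen.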

Additional observations from a re-analysis of the deposited data

How the results depend on the processing

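No gene of the radial glia list was called lower with the settings of the report or in any of the 14 alternatives. The number called higher, 2 of 10, was 4 with library size only, with the upper quartile or without a filter, 6 with offsets for gene length and GC content, and 1 to 7 with a library left out. It was 0 under a minimum of 10 counts per library, under which *Fam107a* and *Hopx* were not tested. With the replicate number as a block it was 5, and 8 with block and offsets together, where the prior degrees of freedom were infinite, as they were without a filter and without either WT library. The libraries share only a number (correlation of deviations 0.137 across genes), so that the design does not pair them. The share of all genes called higher, 7.33% with the settings of the report, moved as well. It was 10% with library size only, 8.25% with the upper quartile, 5.97% without a filter and 5.81% under the minimum of 10 counts. With offsets it was 11%, with the block 9.65% and with both 12.9%. The share called lower was 0.57% with the settings of the report and 8.95% with block and offsets together. *Prom1* turned to -0.15 without WT replicate 2 and to -0.01 without KO replicate 1, and ranged from -0.15 to 0.37 with a library left out. *Fam107a* was called in every fit that tested it.

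Over all genes, 1329 were called (92.8% higher), against 883 under the minimum of 10 counts, 2363 without a filter (75.8% higher), 2880 with offsets (64.2% higher), 2244 with the replicate block (72.4% higher), 3672 with both (59.0% higher), and 951 to 4209 with a library left out. The share higher was then 66.5% without WT replicate 1, 48.2% without WT replicate 2, 89.1% without KO replicate 1 and 94.6% without KO replicate 2. Library size only moved the median of all genes by 0.11 on the log2 scale. *Dnmt1*, at -0.56, passed the threshold at -0.57 with DESeq2's size factors and with DESeq2, at -0.55 without a filter, at -0.56 with limma-voom and with the replicate block, and at -0.62 with offsets, with or without the block, and ranged from -0.67 to -0.46 with a library left out.

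Over the 10 fits of all 4 libraries, genes called higher numbered 0 to 3 among filament genes, 6 to 12 among astrocyte, 4 to 7 among oligodendrocyte, 4 to 8 among mural and 1 to 4 among microglial markers. The 0 filament and 6 astrocyte genes arose only under the minimum of 10 counts per library, which leaves genes with fewer WT counts untested. Each of the other fits called 3 filament and 12 astrocyte genes. Those called lower numbered 2 to 10 among interneuron genes, 0 to 4 among filament genes and 0 to 6 among neuronal progenitor genes. With a library left out, up to 2 progenitor factors, 1 PTN, TNC or PTPRZ1 partner, 2 filament genes and 1 outer radial glia gene were called lower, against 0 with the settings of the report. Counts under 10, as for *Hopx* and *Fam107a* in WT, limit the precision of these fold changes.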

Other observations

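Markers of other cell types that the sort could hold were listed beside the radial glia genes. Over all genes tested, 7.33% were called higher and 0.57% lower. In 28.3% of them both KO libraries were above both WT libraries. Of 10 oligodendrocyte lineage genes 4 were called higher and 0 lower, with a median log2 fold change of 0.57, and in 9 both KO libraries were above either WT library. Their summed level was 1390.3 and 1469 CPM in WT and 2080.2 and 2128 CPM in KO. Of 8 tested microglial genes 2 were called higher and 0 lower, with a median of 1.05 and a summed level of 34.9 and 44.2 CPM in WT and 78.1 and 78.4 CPM in KO. The microglial count was 1 without KO replicate 1 or KO replicate 2, 3 without WT replicate 1 and 6 without WT replicate 2. The oligodendrocyte count was 7 without WT replicate 2. Of 8 tested endothelial genes 0 were called by edgeR, DESeq2 or limma-voom, 2 were higher and 2 lower at an unadjusted p under 0.05, and the median was 0.55. Without WT replicate 1 or WT replicate 2, edgeR called 1 of them higher. Their summed level was 21.6 and 23.2 CPM in WT and 27.3 and 29.5 CPM in KO.

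Of 5 tested ependymal and tanycyte genes 1 was called lower and 2 had a log2 fold change above 0, with a median of -0.57. The called gene was *Gpr50*, counted 51 and 54 times in the WT libraries against 2 and 5 times with KO. Of 4 tested choroid plexus genes 1 was called lower and 1 was above 0, with a median of -1.11. This was *Ttr*, counted 329 and 564 times in the WT libraries against 8 and 10 times with KO. Of 5 tested red cell genes 1 was called lower and 1 was above 0, with a median of -1.47. *Hbb-bs*, the called gene, was counted 128 and 172 times in the WT libraries against 60 and 57 times with KO. With a library left out, the number called lower was 1 to 2 among ependymal and tanycyte genes, 1 to 2 among choroid plexus genes and 2 to 4 among red cell genes.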
